A study of Mus musculus with 8 samples.

Results

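Intestinal epithelial cells with stabilised β-catenin were compared with cells without it, across 2 states of the kinase IKKα. All 8 arrays of the series entered the comparison, and they were divided by title: the 4 that carry bCATca against the 4 that do not. The mice fell into 4 groups with 2 arrays each. WT mice carried neither alteration. IKKa-AA mice were IkkαAA/AA. In bCATca mice a tamoxifen-inducible, stabilised form of β-catenin was expressed in intestinal epithelial cells alone. The bCATca_IKKa-AA mice, called double mutants here, carried both. Every mouse, WT included, was of mixed C57BL/6 x 129Sv x FVB background and received tamoxifen by gavage on 5 days, and cells were prepared 15 days after the treatment began. The AA allele is present in all cells of a mouse and not in the epithelium alone. The promoter behind the inducible system, the ages of the mice and any pooling of animals are not given in the sources used here. Nothing in the labels states that replicates of a group came from separate mice, so p-values reflect the spread among these samples. This spread may be technical in groups other than WT, whose replicates differed in sex chromosome transcripts.

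β-catenin carries the Wnt signal into the nucleus. Without a signal, a destruction complex built on APC and axin marks it for degradation, and once stabilised it acts with TCF/LEF factors on target genes, several of which encode inhibitors of the same pathway. In the gut the pathway maintains the dividing cells of the crypt, whose progeny mature into absorptive enterocytes, mucus-secreting goblet cells, antimicrobial Paneth cells, hormone-secreting enteroendocrine cells and tuft cells. The kinase IKKα belongs to the NF-κB pathway, and its AA allele lacks the serines through which upstream kinases switch it on. The comparison over all 8 arrays asked which effects of β-catenin were shared by mice with normal IKKα and mice with the AA allele.

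Values are log2 intensities, in which a difference of 1 is a 2-fold difference, and changes are the mean with stabilised β-catenin minus the mean without it. Adjusted p-values come from limma over 12393 genes, and a gene passed at an adjusted p under 0.05. Ctnnb1, which encodes β-catenin, read 11.96 to 12.31 on the arrays without and 12.31 to 12.37 on those with the stabilised form (change 0.17, SE 0.11, adjusted p = 0.439). Stabilisation acts on the protein, so this level checks no label. All 10 epithelial markers were measured, with summed linear intensities of 45172 to 50798 without and 47438 to 49374 with stabilised β-catenin. As a guide to background, Y-linked genes read 2.02 to 2.56 on WT replicate 1, where Xist stood at 9.18, and Xist itself was between 3.56 and 4.03 on each of the other 7, so readings up to 4.03 are called near background and differences from them are not exact folds. WT replicate 1 therefore differed from every other array in sex chromosome transcripts, so the WT replicates were not repeats of the same sample. The only array with high Xist lies on the side without stabilised β-catenin, and the part of sex in the results was not tested. IKKa-AA replicate 1 stood apart: 392 genes differed more than 2-fold between the IKKa-AA replicates, against 83 to 167 in the other groups, and each main count below is also given without it. Double mutant replicate 1 stood apart in the pancreatic acinar transcripts Cela2a (7.28) and Ctrb1 (8.07), which read at most 3.71 and 4.89 elsewhere. The span between 3′ and 5′ control probe sets, a measure of RNA integrity, moved with stabilised β-catenin for Pcx within each genotype, at 3.59 and 2.85 on bCATca against 2.65 and 2.79 on WT, and 3.33 and 3.15 on double mutants against 2.91 and 2.93 on IKKa-AA. For Gapdh it was apart with normal IKKα (-0.01 and 0.05 against -0.16 and -0.23) and overlapped with the AA allele, and for Actb it was 0.49 to 0.77 with and 0.37 to 0.65 without stabilised β-catenin. The part of RNA integrity in the results below was not tested.

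Averaged over the 2 IKKα genotypes, 12 genes passed the β-catenin main effect, 8 upward (0.0646%) and 4 downward (0.0323%), together 0.0968% of the 12393 genes. Tested within a genotype, all 12 passed with normal IKKα (9.29% of all genes) and 4 with the AA allele (0.0565% of all genes). The 4 that fell, Isl1, Ghrl, Gcg and Cck, are all genes of enteroendocrine cells. Those that rose were the enteroendocrine gene Chga, the interferon-inducible genes Ifit2, Gbp3, Zbp1 and Ifitm1, and Bex1, Scd1 and Slc1a4. In each of the 12, the 4 arrays with stabilised β-catenin lay wholly above or below the 4 without, as was true of 923 genes in all (7.45%), 577 higher (4.66%) and 346 lower (2.79%). All but Slc1a4 also differed at least 2-fold in the same direction in bCATca against WT and in double mutants against IKKa-AA, and these 11 genes (0.0888%) are called shared effects. The 2-fold rule is on size alone and is not a test within each genotype. The 12 were chosen from these same arrays, so their counts within a genotype, without overlap or in other fits below give no independent support. The limma count at an unadjusted p below 0.05 was 2330 (18.8%; 1389 higher, 11.2%, and 941 lower, 7.59%).

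The count rested on single arrays. Without IKKa-AA replicate 1 it was 1157 (9.34%), which included all 12 genes, with 675 higher (5.45%) and 482 lower (3.89%). It was 49 without IKKa-AA replicate 2, with 11 of the 12, and 22 without double mutant replicate 1, with 8 of the 12. Without double mutant replicate 2 it was 4, which were Isl1, Ghrl, Gbp3 and Scd1. Dropping WT replicate 1 left 2, WT replicate 2 left 3, bCATca replicate 1 left 3 and bCATca replicate 2 left 2, and in these 4 fits Isl1 and Ghrl were the only ones of the 12 that still passed. Isl1 and Ghrl therefore kept their calls whichever of the 8 arrays was dropped (highest adjusted p = 0.0418 for each). A model with 1 mean for each group, which estimates the same average change but keeps differences between the IKKα genotypes out of the error, gave 521 genes (4.2%), all 12 among them, with 370 higher (2.99%) and 151 lower (1.22%). The split was 313 higher and 204 lower after quantile normalisation and 310 and 176 after cyclic loess. With the groups kept apart, the count ranged from 134 to 1496 as arrays were left out, highest (12.1%) without IKKa-AA replicate 1 and lowest without double mutant replicate 1.

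**Figure D1:**
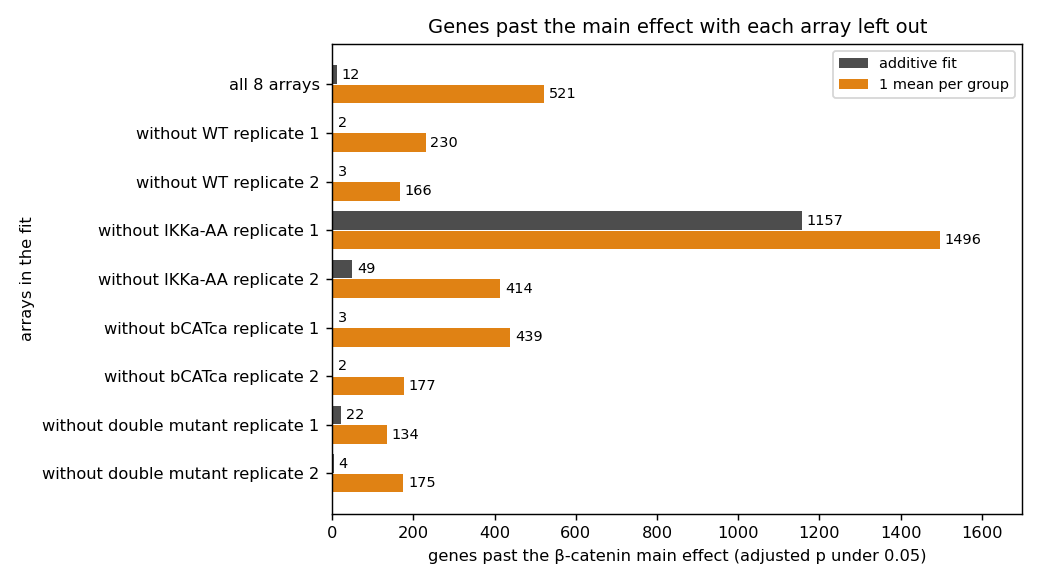
Number of genes past the β-catenin main effect (x axis, adjusted p under 0.05 of 12393 genes) with all 8 arrays and with each array left out (y axis), by the additive model (dark bars) and the model with 1 mean per group (orange bars). The additive count is 12 with all arrays and 1157 without IKKa-AA replicate 1, and it is at most 4 when any WT or bCATca array or double mutant replicate 2 is left out.

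Among genes of enteroendocrine cells, the transcription factor Isl1 and 3 hormone genes fell, and the granin gene Chga rose. Isl1 encodes a homeodomain factor of hormone-producing cells. It read 4.64 and 4.65 on WT and 4.55 and 4.90 on IKKa-AA, against 2.97 and 3.14 on bCATca and 3.28 and 3.44 on double mutant arrays. All 4 readings with stabilised β-catenin were near background. The change was -1.48 (SE 0.12, adjusted p = 0.00766, n = 4 against 4), with both of its 2 probe sets lower. It was -1.59 with normal IKKα and -1.36 with the AA allele, and the 95% interval of the difference between the genotypes ran from -0.29 to 0.75.

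Ghrl encodes the precursor of ghrelin, the hormone that stimulates feeding. Its levels were 6.45 and 6.81 on WT, 6.44 and 6.69 on IKKa-AA, 4.95 and 5.29 on bCATca, and 5.04 and 5.17 on double mutant arrays. The groups separated by over 1 log2 unit, and the fall was 2.80-fold (change -1.48, SE 0.13, adjusted p = 0.00825). It was nearly equal in size in both genotypes, -1.51 with normal IKKα and -1.46 with the AA allele (interval of the difference -0.55 to 0.66). Cck encodes cholecystokinin, which drives gallbladder contraction and pancreatic secretion. It read 7.51 and 7.77 on WT and 7.61 and 8.14 on IKKa-AA, against 6.43 and 6.64 on bCATca and 6.93 and 6.78 on double mutant arrays. That fall was 2.09-fold (change -1.06, SE 0.14, adjusted p = 0.0449), -1.10 with normal IKKα and -1.02 with the AA allele (interval of the difference -0.57 to 0.73).

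Gcg encodes proglucagon, from which gut L cells make glucagon-like peptides. It stood at 5.80 and 6.37 on WT, 5.59 and 5.79 on IKKa-AA, 3.71 and 3.82 on bCATca, and 4.57 and 4.16 on double mutant arrays. Both bCATca arrays were near background and below both double mutant arrays. The change was -1.82 (SE 0.23, adjusted p = 0.0344), -2.32 with normal IKKα and -1.33 with the AA allele. The 95% interval of the difference, 0.28 to 1.71, did not span 0, but the interaction did not pass over all genes (adjusted p = 0.211). Chga encodes chromogranin A, a core protein of hormone-storing granules. It went the other way, from 6.71 and 6.89 on WT and 7.27 and 7.13 on IKKa-AA to 8.28 and 7.92 on bCATca and 7.95 and 8.60 on double mutant arrays. The rise was 2.28-fold (change 1.19, SE 0.16, adjusted p = 0.0484), 1.30 with normal IKKα and 1.08 with the AA allele (interval of the difference -0.96 to 0.52). Gcg, Cck and Chga lost their calls in 5 or more of the 8 fits with an array left out, Cck and Chga in 6 of them (highest adjusted p 0.126, 0.165 and 0.169).

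Over the whole enteroendocrine list, 24 of 25 genes were measured, of which 1 rose and 4 fell (0.0646% and 0.0323% of all genes), and 3 were higher and 8 lower without overlap between the arrays (4.66% and 2.79% of all genes). The median change was -0.00, against 0.02 over all genes. The lower members without overlap that did not pass were the hormone genes Gip (-1.28, adjusted p = 0.0599), Nts (-1.38, 0.0655), Sst (-1.46, 0.0599) and Gal (-0.41, 0.178). Gip, the incretin gene of K cells, read 10.25 to 11.21 on the arrays without and 9.43 to 9.81 on those with stabilised β-catenin, and Sst, the somatostatin gene, 7.93 to 9.12 and 7.04 to 7.58. For both, IKKa-AA replicate 1 was the lowest of the arrays without stabilised β-catenin. The higher members that did not pass were the granin gene Chgb (0.77, adjusted p = 0.104) and Tac1 (1.30, 0.0599), the precursor of substance P made by enterochromaffin cells. Tac1 read 6.54 to 7.60 without and 7.96 to 8.58 with stabilised β-catenin.

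Members that act early in the lineage did not pass. Neurog3, the factor that starts endocrine differentiation, stood at 0.33, Neurod1 at -0.15, Pax4 at 0.02, Pax6 at -0.01 and Insm1 at 0.01, all with overlapping arrays. The same held for Tph1, the serotonin synthesis enzyme (0.20), and Pyy, the peptide YY gene (0.15). With IKKa-AA replicate 1 left out, 2 members were called higher and 9 lower (8.33% and 37.5%, against 5.45% and 3.89% of all genes). In the model with 1 mean per group 2 were higher and 7 lower (2.99% and 1.22% of all genes). In RNA from whole cell preparations, fewer cells of a type and less RNA per cell cannot be told apart.

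**Figure D2:**
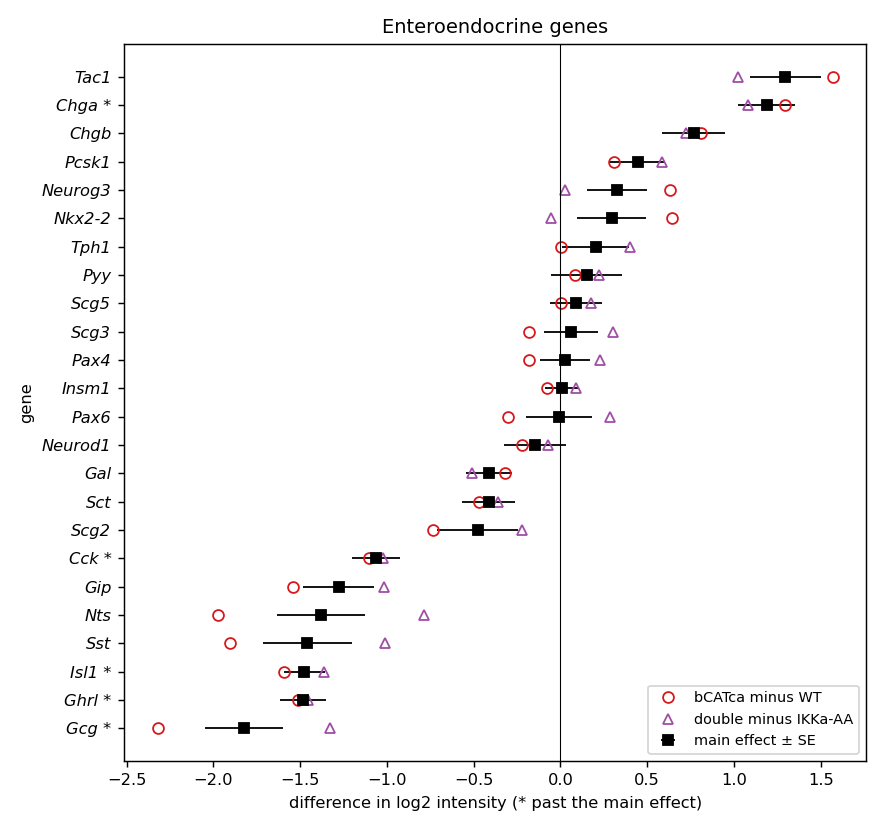
Differences in log2 intensity (x axis) for the 24 measured enteroendocrine genes (y axis): the main effect with its SE (black squares), bCATca minus WT (red circles) and double mutants minus IKKa-AA (purple triangles). Asterisks mark the 5 genes past the main effect, with Gcg at -1.82 at the bottom and Tac1, which did not pass, at 1.30 at the top.

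Interferon-inducible genes were the other group with several members called. Ifit2, which encodes an antiviral protein that binds RNA, read 4.70 and 4.72 on WT and 6.14 and 4.70 on IKKa-AA, against 7.23 and 7.18 on bCATca and 8.95 and 8.81 on double mutant arrays. IKKa-AA replicate 1 was alone among the arrays without stabilised β-catenin in reading above 4.72, and the double mutants exceeded bCATca. The rise was 7.87-fold (change 2.98, SE 0.30, adjusted p = 0.0198), 2.49 with normal IKKα and 3.46 with the AA allele (interval of the difference -0.25 to 2.18). Gbp3, a guanylate-binding GTPase of cell-autonomous defence, stood at 4.96 and 5.12 on WT, 5.81 and 5.54 on IKKa-AA, 6.20 and 6.34 on bCATca, and 6.90 and 7.58 on double mutant arrays. It rose 2.64-fold (change 1.40, SE 0.17, adjusted p = 0.0318), 1.23 with normal IKKα and 1.57 with the AA allele (interval of the difference -0.39 to 1.07).

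Zbp1, a sensor of Z-form nucleic acids that can trigger cell death, read 7.50 and 7.70 on WT, 9.10 and 8.41 on IKKa-AA, 9.38 and 9.14 on bCATca, and 9.92 and 9.88 on double mutant arrays. The gap between the highest array without and the lowest with stabilised β-catenin was small, from 9.10 to 9.14. Its change was 1.40 (SE 0.18, adjusted p = 0.0350), 1.66 with normal IKKα and 1.15 with the AA allele (interval of the difference -1.24 to 0.21). Ifit2 lost its call in 5, Gbp3 in 4 and Zbp1 in 6 of the 8 fits with an array left out (highest adjusted p 0.102, 0.124 and 0.151). Each was past the test without IKKa-AA replicate 1 (adjusted p 0.00295, 0.00951 and 0.00135).

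Of 29 interferon response genes listed, 26 were measured. Past the test were 3, all higher (0.0646% of all genes), and 5 were higher without overlap (4.66% of all genes), with Cxcl9 (2.98, adjusted p = 0.0599) and Cxcl10 (1.45, 0.0599), genes of T cell-attracting chemokines, beside the 3 called. All 26 changes were above 0, 23 of them in both IKKα genotypes, against 6719 and 3934 of all 12393 genes. The median was 0.91, with 0.63 for normal IKKα and 1.17 for the AA allele, against 0.02, 0.01 and 0.03 over all genes. At an unadjusted p under 0.05, 19 of the 26 were higher, against 11.2% of all genes. Some members were higher mainly on the double mutant arrays. Ifi27l2a read 9.18 and 9.12 there and 7.07 and 7.25 on bCATca, and Irf7, a master factor of the response, 10.24 and 10.58 there and 9.51 and 8.82 on bCATca. In both, the bCATca arrays overlapped the arrays without stabilised β-catenin. In the model with 1 mean per group 9 members were called higher (2.99% of all genes), and without IKKa-AA replicate 1 in the additive model 14 (5.45% of all genes).

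Markers of immune cells were measured beside these genes. Of 20 T cell markers 17 were measured, and their summed linear intensity was 1401 to 8521 with and 3270 to 13770 without stabilised β-catenin, ranges that overlapped. Both bCATca arrays (8521 and 6476) lay above IKKa-AA replicate 1 (3270) and below the other arrays without it, and the double mutants had the lowest sums (1830 and 1401). Of the 17, 0 passed in limma and 11 were lower at an unadjusted p under 0.05 (7.59% of all genes), with a median of -1.25. Ptprc, the pan-leukocyte phosphatase CD45, had the smallest p (-1.74, SE 0.38, adjusted p = 0.0912). Leaving out IKKa-AA replicate 1, 7 were called lower (3.89% of all genes). Summed levels of 19 myeloid markers were 675 to 1132 with and 729 to 906 without, of 11 B and plasma cell markers 1015 to 5035 and 1119 to 4506, and of 20 stromal and endothelial markers 455 to 603 and 437 to 550. Readings near background on all 8 arrays were found for 1 of the T cell, 5 of the myeloid, 3 of the B and plasma cell and 8 of the stromal and endothelial markers. Their part in the interferon result was not tested.

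**Figure D3:**
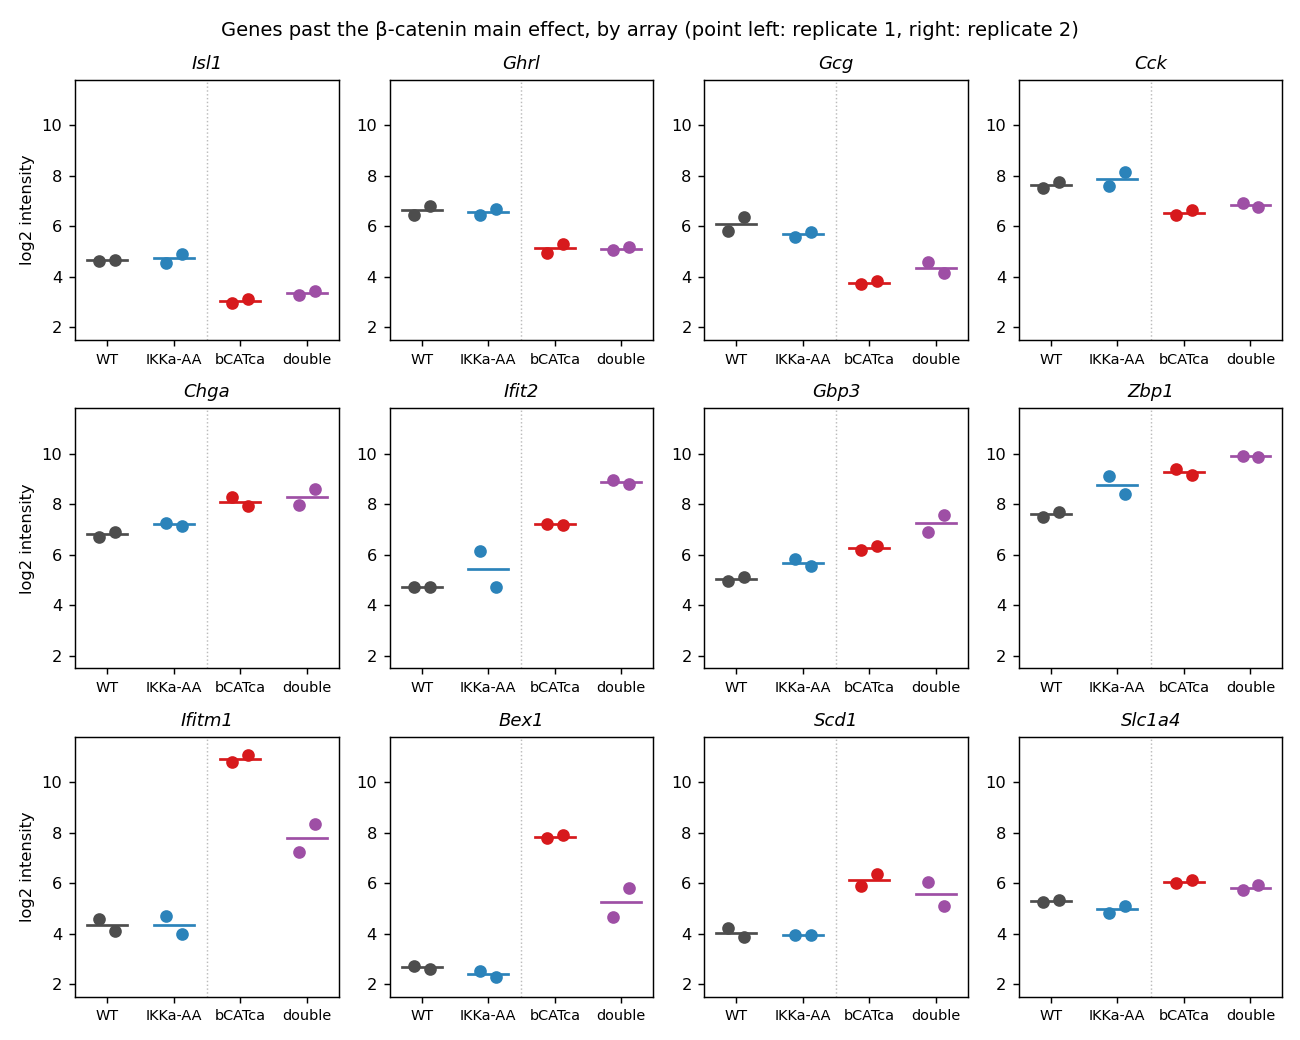
Log2 intensity (y axis) of the 12 genes past the β-catenin main effect on each array, by group (x axis; left point replicate 1, right point replicate 2, horizontal line the group mean). In every panel the 4 arrays right of the dotted line lie wholly above or below the 4 left of it, and Ifitm1 and Bex1 are higher in bCATca than in double mutants.

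The DNA just before the start sites of these genes was read from RefSeq promoters (build GRCm38.p6), which held 15 entries for 10 of the 12 genes, and Scd1 and Zbp1 were not among them. In the 250 bases before each start, TCF/LEF letters (CTTTG and then A or T at each of the next 2 bases, on either strand) were found at 1 start each of Ifit2, Gbp3 and Ghrl, and 14.8% of all 32851 promoters held such a match. An HNF4 match (CAAAGTCCA on either strand) was in none of the 15 entries and in 0.384% of all promoters. An interferon response match (TTTC, any 2 bases and TTTC again, on either strand, a search added after the values were seen) was in Gbp3 alone of these genes and in 2.98% of all promoters. The 120 bases before the start are shown for the 3 genes with a TCF/LEF match, because Ifit2 and Gbp3 rose together and Ghrl had the change most alike in both genotypes. Capitals mark the matches, all TCF/LEF matches read on the opposite strand, and in Gbp3 the later capitals are a pair of overlapping interferon response matches.
Ifit2, chr19:34550574-34550693, plus strand: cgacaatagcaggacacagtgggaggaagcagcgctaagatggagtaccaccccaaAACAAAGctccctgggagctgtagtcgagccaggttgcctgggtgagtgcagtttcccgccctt
Gbp3, chr3:142559924-142560043, plus strand: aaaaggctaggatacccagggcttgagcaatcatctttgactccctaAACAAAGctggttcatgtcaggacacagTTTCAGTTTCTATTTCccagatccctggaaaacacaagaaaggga
Ghrl, chr6:113717693-113717812, minus strand: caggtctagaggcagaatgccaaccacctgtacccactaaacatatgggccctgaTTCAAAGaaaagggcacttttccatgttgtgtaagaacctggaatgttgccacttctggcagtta
The TCF/LEF matches lie at -64 to -58 in Ifit2, -73 to -67 in Gbp3 and -65 to -59 in Ghrl, counted back from the start site, and the interferon response matches of Gbp3 at -45 to -36 and -39 to -30. These are matches of letters, and binding was not measured. The same letters stood before genes that rose and before 1 that fell.

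Ifitm1 and Bex1 had the largest changes of the 12. Ifitm1, an interferon-inducible membrane protein that also marks crypt cells, read 4.58 and 4.11 on WT and 4.69 and 4.00 on IKKa-AA, against 10.80 and 11.06 on bCATca and 7.22 and 8.36 on double mutant arrays. The lowest array with stabilised β-catenin was over 2 log2 units above the highest without. IKKa-AA replicate 2 was near background, so no exact fold is given. The change was 5.02 (SE 0.59, adjusted p = 0.0318), 6.59 with normal IKKα and 3.45 with the AA allele. The interval of the difference, -4.36 to -1.92, did not span 0, and the interaction lay just outside the threshold over all genes (adjusted p = 0.0549). Bex1, a small adaptor-like protein best known from neurons, read 2.73 and 2.62 on WT and 2.50 and 2.30 on IKKa-AA, all near background, and 7.77 and 7.91 on bCATca and 4.66 and 5.81 on double mutant arrays. Its change was 4.00 (SE 0.45, adjusted p = 0.0307), 5.17 with normal IKKα and 2.83 with the AA allele (interval of the difference -3.35 to -1.31, adjusted p of the interaction 0.0806). Both lost their calls without either WT array, either bCATca array or double mutant replicate 2 (highest adjusted p = 0.124).

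Scd1, a desaturase that makes monounsaturated fatty acids, read 4.21 and 3.87 on WT and 3.96 and 3.94 on IKKa-AA, at or close to background, and 5.88 and 6.35 on bCATca and 6.05 and 5.08 on double mutant arrays. The change was 1.85 (SE 0.22, adjusted p = 0.0318), 2.08 with normal IKKα and 1.62 with the AA allele (interval of the difference -1.45 to 0.52). Slc1a4, a transporter of neutral amino acids, was the smallest change called: 5.24 and 5.35 on WT, 4.82 and 5.10 on IKKa-AA, 6.02 and 6.11 on bCATca, and 5.71 and 5.94 on double mutant arrays. It rose 1.76-fold (change 0.82, SE 0.11, adjusted p = 0.0482), with all 3 of its probe sets higher, by 0.77 with normal IKKα and 0.87 with the AA allele (interval of the difference -0.41 to 0.60). Scd1 lost its call in 5 and Slc1a4 in 6 of the 8 fits with an array left out (highest adjusted p 0.124 and 0.156). Slc1a4 and the list members named below beyond the smallest p of their list were chosen after their values were seen.

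Of the Wnt feedback inhibitors, 18 were listed and 16 measured, and 0 passed in limma. In 11 of the 16 the change was above 0 in both genotypes and in 3 below 0 in both. The same held for 3934 and 3052 of all 12393 genes. At an unadjusted p under 0.05, 9 were higher and 1 lower (11.2% and 7.59% of all genes), and without overlap 6 were higher and 1 lower (4.66% and 2.79% of all genes). The median change was 0.33, 0.49 with normal IKKα and 0.31 with the AA allele. Axin2, a scaffold of the destruction complex and a standard readout of the pathway, had the smallest p. It read 7.29 and 7.35 on WT and 7.64 and 7.89 on IKKa-AA, against 9.43 and 9.26 on bCATca and 8.41 and 8.71 on double mutant arrays, so the arrays did not overlap. Its change was 1.41 (SE 0.24, adjusted p = 0.0599), 2.02 with normal IKKα and 0.79 with the AA allele. Notum, an enzyme that inactivates Wnt ligands, stood at 2.23 (adjusted p = 0.0599), Nkd1 at 1.97 (0.0704), Apcdd1 at 1.42 (0.0679), Rnf43, which removes Wnt receptors, at 1.20 (0.0932) and Wif1 at 1.03 (0.0679), while Sfrp5 stood at -0.76 (0.124). Wif1 was near background on all 8 arrays. In the model with 1 mean per group, 6 of the 16 were called, all higher (2.99% of all genes): Axin2, Notum, Nkd1, Wif1, Apcdd1 and Rnf43. Without IKKa-AA replicate 1 the additive model called 7 higher and 1 lower (5.45% and 3.89% of all genes). For Nkd1 the difference between the genotypes itself passed (interaction -2.14, adjusted p = 0.0166).

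Of 22 further Wnt target genes 21 were measured, with 0 past limma's test, 11 higher and 0 lower at an unadjusted p under 0.05 (11.2% and 7.59% of all genes), and 7 higher and 0 lower without overlap (4.66% and 2.79% of all genes). Prox1, a transcription factor, had the smallest p (0.59, adjusted p = 0.0655) but was near background on all arrays. Myc, the growth-promoting transcription factor, read 6.44 to 6.86 without and 7.14 to 7.84 with stabilised β-catenin (change 0.92, SE 0.17, adjusted p = 0.0655). Cd44, an adhesion receptor of crypt cells, had a change of 1.40 (adjusted p = 0.107), Ephb3, a receptor that positions cells along the crypt, 1.00 (0.0929), and Tnfrsf19 2.24 (0.0655). Of these, Cd44 had the gap closest to overlap, from 7.19 on IKKa-AA replicate 1 to 7.38 on double mutant replicate 1. The list median was 0.46, 0.63 with normal IKKα and 0.16 with the AA allele. In the model with 1 mean per group 7 were called (2.99% of all genes), and 7 without IKKa-AA replicate 1 (5.45%), all higher. The cyclin genes stood at 0.17 (Ccnd1) and -0.01 (Ccnd2), and the immediate early gene Jun at -0.01. Of 18 measured Wnt receptors and nuclear factors, 0 passed in limma, 5 were higher and 2 lower at an unadjusted p under 0.05 (27.8% and 11.1%, against 11.2% and 7.59% of all genes), 0 passed without IKKa-AA replicate 1, and the median was 0.16. The receptor gene Lrp5 had the smallest p (0.36, adjusted p = 0.158).

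In the crypt stem cell list the median was 0.33, and of 16 measured genes 0 passed in limma and 7 were higher and 1 lower at an unadjusted p under 0.05 (11.2% and 7.59% of all genes). The median was 0.63 with normal IKKα and 0.07 with the AA allele, and without IKKa-AA replicate 1 the model called 3, all higher (5.45% of all genes). Igfbp4, which encodes a binding protein of insulin-like growth factors, was the nearest to passing. It read 7.28 and 7.38 on WT, 8.40 and 8.02 on IKKa-AA, 11.02 and 11.28 on bCATca, and 9.51 and 10.14 on double mutant arrays (change 2.72, SE 0.40, adjusted p = 0.0539). The stem cell marker Lgr5 had a change of 1.18 (SE 0.50, adjusted p = 0.254) with overlapping arrays: the IKKa-AA replicates read 4.81 and 6.71 and the double mutants 5.52 and 6.67. In 14 measured fetal and regenerative genes 0 passed, 6 were higher at an unadjusted p under 0.05 (11.2% of all genes), and the median was 0.29. Without IKKa-AA replicate 1, 3 were called higher (5.45% of all genes). Clu, which encodes clusterin, had the smallest p (2.34, adjusted p = 0.127), at 10.23 and 9.95 on bCATca but 7.46 and 6.21 on double mutant arrays.

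Of 17 measured endoderm and intestinal identity factors, 0 passed in limma and 3 were higher and 1 lower at an unadjusted p under 0.05 (17.6% and 5.88%, against 11.2% and 7.59% of all genes), with a median of 0.03. The model called 3 higher and 1 lower once IKKa-AA replicate 1 was dropped (5.45% and 3.89% of all genes). Sox17, an endodermal transcription factor, lay closest to the threshold of all genes that did not pass. It was near background on all arrays without stabilised β-catenin (3.19 to 4.02) and read 9.65 and 10.05 on bCATca and 5.96 and 7.20 on double mutant arrays (change 4.78, SE 0.66, adjusted p = 0.0528). Foxa1 stood at 0.76 (adjusted p = 0.109) without overlap. The intestinal master factor Cdx2 stood at -0.07 and Hnf4a, a factor of enterocytes, at 0.02.

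No gene of the growth and division lists passed the additive test. All 23 measured mitosis genes and all 23 measured ribosome biogenesis genes had changes above 0, against 6719 of all 12393 genes. The list medians were 0.37 and 0.40. In each of these lists 0 passed in limma, and 1 and 13 were higher at an unadjusted p under 0.05 (11.2% of all genes). The medians were 0.65 in both lists with normal IKKα and 0.07 in both with the AA allele. Without IKKa-AA replicate 1 the medians of the main effect were 0.59 and 0.57. Kif20a, a mitotic kinesin, had the smallest p of its list (0.57, adjusted p = 0.241). It read 6.44 and 5.34 on the IKKa-AA arrays and 6.14 on both double mutant arrays. Wdr12, a ribosome assembly factor, had the smallest p of the other (0.67, adjusted p = 0.175), with 7.11 and 6.31 on IKKa-AA. Once IKKa-AA replicate 1 was left out, 9 mitosis and 13 ribosome biogenesis genes were called, all higher (5.45% of all genes). DNA replication genes had a median of 0.28, with 0 of 23 past the test and 5 higher at an unadjusted p under 0.05 (21.7%, against 11.2% of all genes). Without IKKa-AA replicate 1, 1 was called higher (4.35%, against 5.45% of all genes). Gins1 had the smallest p (0.61, adjusted p = 0.205). In 12 polyamine and one-carbon genes the median was 0.39, 0 passed and 5 were higher at an unadjusted p under 0.05 (41.7%, against 11.2% of all genes). That median was 0.52 with normal IKKα and 0.19 with the AA allele, and 5 of the 12 were called without IKKa-AA replicate 1, all higher (5.45% of all genes). Phgdh, the entry enzyme of serine synthesis, was higher without overlap (0.64, adjusted p = 0.0891).

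No gene of the absorptive cell lists passed the additive test. All 13 measured brush border and digestion genes had changes below 0, where 6719 of all 12393 genes were above 0. The list median of -0.40 combined -0.81 with normal IKKα and -0.11 with the AA allele. At an unadjusted p under 0.05, 6 were lower (7.59% of all genes), with Pdzk1, a scaffold of apical transporters, at -1.66 (SE 0.45, adjusted p = 0.14). Of 21 nutrient transporters, 5 were lower without overlap (2.79% of all genes), 11 were lower at an unadjusted p under 0.05 (7.59% of all genes), and the median was -0.77, with -1.11 for normal IKKα and -0.14 for the AA allele. Slc19a3, a thiamine transporter, had the smallest p (-0.94, SE 0.20, adjusted p = 0.0891), reading 5.99 to 6.86 without and 4.87 to 5.88 with stabilised β-catenin. The sugar transporter gene Slc5a4b had a change of -3.47 (SE 0.86, adjusted p = 0.115), from 10.71 and 10.54 on WT and 6.64 and 9.03 on IKKa-AA to 5.33 and 4.56 on bCATca and 6.55 and 6.59 on double mutant arrays. The array closest to overlap was IKKa-AA replicate 1. Without that array the main effect medians were -0.53 for brush border and digestion genes and -0.95 for nutrient transporters. Slc5a4a and Slc5a4b are close relatives, and probe sets may read both.

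All 25 measured genes of phase I and II metabolism, which handle drugs and steroids, had changes below 0, where 6719 of all 12393 genes were above 0. In the list 14 were lower at an unadjusted p under 0.05 (7.59% of all genes) and 0 were past limma's test. The list median was -1.35, which combined -2.30 with normal IKKα and -0.19 with the AA allele. Without IKKa-AA replicate 1 the main effect median was -1.76. Ugt2b5, a glucuronosyltransferase, had the smallest p (-3.63, SE 0.75, adjusted p = 0.0867): it read 9.30 and 9.99 on WT, 5.99 and 8.90 on IKKa-AA, 5.07 and 4.00 on bCATca, and 5.70 and 4.89 on double mutant arrays. Cyp2c29, a cytochrome P450, read 4.04 on IKKa-AA replicate 1 and 9.20 on replicate 2, and 4.00 to 5.59 with stabilised β-catenin (change -3.80, adjusted p = 0.154). In this family as well, relatives may share probes. Without IKKa-AA replicate 1, 19 of the 25 were called lower (3.89% of all genes), with Cyp2c29 at -5.20 and Ugt2b5 at -4.51, along with 5 brush border genes and 11 transporters. In the model with 1 mean per group 3, 0 and 8 were called lower (1.22% of all genes). Of 20 lipid absorption genes 3 and of 17 fatty acid oxidation genes 8 were lower at an unadjusted p under 0.05 (15% and 47.1%, against 7.59% of all genes). In both lists 0 were past limma's test, and the medians were -0.25 and -0.33. Lipid absorption genes had medians of -0.47 with normal IKKα and 0.01 with the AA allele, and fatty acid oxidation genes -0.40 and -0.17. In the fit that dropped IKKa-AA replicate 1, 2 lipid absorption genes were called lower. In that fit 1 fatty acid oxidation gene was called higher and 3 lower (5.45% and 3.89% of all genes). The apolipoprotein gene Apoc3 stood at -1.56 (adjusted p = 0.13) and Acot1, a thioesterase, at 0.54 (adjusted p = 0.115). Retinoid genes had a median of -0.20 and 0 past limma's test. At an unadjusted p under 0.05, 2 were higher and 7 lower (11.1% and 38.9%, against 11.2% and 7.59% of all genes). Lrat, which esterifies retinol, stood at -1.24 (adjusted p = 0.0762). Without IKKa-AA replicate 1 the model called 1 retinoid gene higher and 4 lower (5.45% and 3.89% of all genes).

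**Figure D4:**
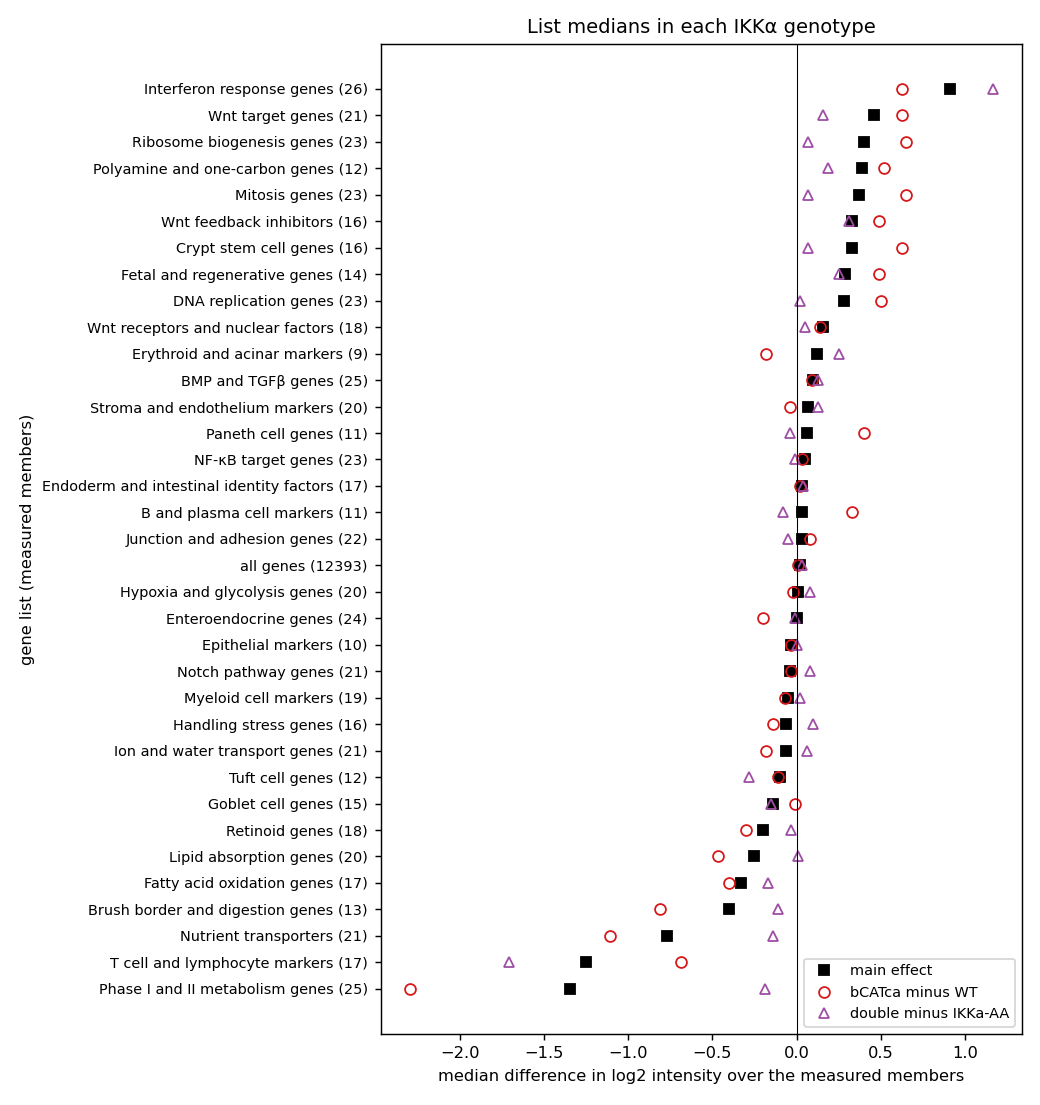
Median difference in log2 intensity (x axis) over the measured members of each gene list and over all genes (y axis, number measured in brackets): the main effect (black squares), bCATca minus WT (red circles) and double mutants minus IKKa-AA (purple triangles). Interferon response genes have the highest median (0.91) and are further right with the AA allele. Phase I and II metabolism genes have the lowest (-1.35), at -2.30 with normal IKKα and -0.19 with the AA allele. All medians shown include IKKa-AA replicate 1.

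No gene of the other secretory lineages passed. Of 11 measured Paneth cell genes 0 passed in limma, 4 were higher and 1 lower at an unadjusted p under 0.05 (36.4% and 9.09%, against 11.2% and 7.59% of all genes), and 4 were higher without overlap (4.66% of all genes). The median was 0.06, with 0.40 for normal IKKα and -0.04 for the AA allele. The model with 1 mean per group called 3 of them higher (2.99% of all genes). Without IKKa-AA replicate 1 the additive model called 4 higher and 1 lower (5.45% and 3.89% of all genes). Pla2g2a, a secreted bactericidal phospholipase, read 6.97 to 7.85 without and 8.96 to 10.88 with stabilised β-catenin (change 2.63, SE 0.39, adjusted p = 0.0539). Of 15 goblet cell genes 0 passed, and the median was -0.14. At an unadjusted p under 0.05, 3 were higher and 3 lower (20% and 20%, against 11.2% and 7.59% of all genes). Without overlap 3 were higher (4.66% of all genes). The model with 1 mean per group called 1 higher and 1 lower (2.99% and 1.22% of all genes). So did the additive model without IKKa-AA replicate 1 (5.45% and 3.89% of all genes). Retnlb, an antimicrobial protein of goblet cells, read 5.71 and 5.41 on WT, 8.08 and 6.62 on IKKa-AA, 8.30 and 9.94 on bCATca, and 9.18 and 9.67 on double mutant arrays (change 2.82, SE 0.46, adjusted p = 0.0599). Among 12 tuft cell genes 0 passed, and 4 were lower at an unadjusted p under 0.05 (33.3%, against 7.59% of all genes). The median was -0.10, with Ltc4s, an enzyme of leukotriene synthesis, at -0.996 (adjusted p = 0.159). Of 21 Notch pathway genes 0 passed, and the median was -0.04. At an unadjusted p under 0.05, 6 were higher and 1 lower (28.6% and 4.76%, against 11.2% and 7.59% of all genes). Without overlap 4 were higher and 1 lower (4.66% and 2.79% of all genes). The receptor gene Notch2 stood at 0.64 (adjusted p = 0.124). NF-κB targets had a median of 0.05, with 0 of 23 past the test and 2 higher and 1 lower at an unadjusted p under 0.05 (8.7% and 4.35%, below the 11.2% and 7.59% of all genes). With IKKa-AA replicate 1 dropped, 1 tuft cell gene was called lower (3.89% of all genes), and 2 Notch genes and 1 NF-κB target higher (5.45% of all genes). Lcn2, which encodes an iron-sequestering protein, had the smallest p of the NF-κB targets (2.42, adjusted p = 0.0599). It read 3.05 to 4.13 without and 5.05 to 6.92 with stabilised β-catenin. All arrays without it but IKKa-AA replicate 1 were near background.

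Signalling, metabolic and structural lists were described in the same way, each with 0 members past limma's test. Medians were 0.10 for 25 BMP and TGFβ genes (7 higher and 2 lower at an unadjusted p under 0.05), 0.01 for 20 hypoxia and glycolysis genes (6 higher), 0.03 for 22 junction and adhesion genes (2 higher and 2 lower) and -0.06 for 21 ion and water transport genes (3 higher and 4 lower), where all genes gave 11.2% higher and 7.59% lower. Without IKKa-AA replicate 1, 6 of the 20 hypoxia and glycolysis genes were called, all higher (5.45% of all genes). In the model with 1 mean per group 2 of the 20 were called higher (2.99% of all genes). Leaving out IKKa-AA replicate 1 gave 2 higher and 2 lower among BMP and TGFβ genes and among ion and water transport genes. Among junction and adhesion genes it gave 2 higher and 1 lower (5.45% and 3.89% of all genes). Their members with the smallest p were the TGFβ receptor gene Tgfbr2 (1.39, adjusted p = 0.0761), the vasodilator peptide gene Adm (1.14, 0.0813), the pore-forming claudin gene Cldn2 (1.09, 0.109) and the carbonic anhydrase gene Car9 (0.54, 0.114). In the marker lists the smallest p belonged to the keratin gene Krt18 among epithelial markers (0.65, 0.159), Blnk among B and plasma cells (0.83, 0.0891), Cd14 among myeloid cells (0.77, 0.15), Vwf among stroma and endothelium (0.79, 0.0855), Hba-a1 among erythroid and acinar markers (-0.21, 0.415) and Fosb among handling stress genes (-0.81, 0.124).

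The main effect averages 2 effects that were called at different rates. With normal IKKα, bCATca differed from WT in 1151 genes (9.29%), 711 higher (5.74%) and 440 lower (3.55%), a split that was 551 and 518 after quantile normalisation and 560 and 520 after cyclic loess. With the AA allele, double mutants differed from IKKa-AA in 7 genes (0.0565%): Bex1, Hs6st2, Ifi27l2a, Ifit2, Ifitm1, Isl1 and Myl9. Past both with the same sign were 6, all of the 7 but Ifi27l2a, which is 0.521% of the genes called with normal IKKα and 85.7% of those called with the AA allele. Without IKKa-AA replicate 1 the AA count was 159 (1.28%), of which 40 had been called in the same direction with normal IKKα. All 12 genes past the main effect passed with normal IKKα, and Bex1, Ifit2, Ifitm1 and Isl1 passed with the AA allele.

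Genes called with normal IKKα were followed in the AA genotype, which shares no array with that comparison. They were chosen for large changes with normal IKKα, so their medians in the 2 genotypes are not compared in size. Of the 711 higher in bCATca, 581 (81.7%) were also higher in double mutants than in IKKa-AA, against 56.1% of all genes. Their median was 0.95 with normal IKKα, the comparison that chose them, and 0.17 with the AA allele (0.26 without IKKa-AA replicate 1). Of the 440 lower, 282 (64.1%) were lower with the AA allele, against 43.9% of all genes, with medians of -0.998 and -0.11 (-0.28 without IKKa-AA replicate 1). Across all genes the effects in the 2 genotypes had a correlation of 0.39, and of 0.51 without IKKa-AA replicate 1, where genes are not independent replicates.

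The difference between the genotypes passed in 11 genes (0.0888%), and in all 11 the effect of β-catenin was larger with normal IKKα. None of them was among the 12 past the main effect, of which 3 (Gcg, Ifitm1 and Bex1) had an unadjusted interaction p under 0.05. Myl9, a myosin regulatory light chain, stood at 5.42 with normal IKKα and 2.19 with the AA allele, and Slc23a1, a vitamin C transporter, at -4.18 and -0.23. Myl9 was near background on every array without stabilised β-catenin. The count was 85 (0.686%) without IKKa-AA replicate 1 and 234 without IKKa-AA replicate 2, and 0 without WT replicate 1, bCATca replicate 1 or bCATca replicate 2 (1518, 1901 and 1476 genes by limma at an unadjusted p below 0.05).

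**Figure D5:**
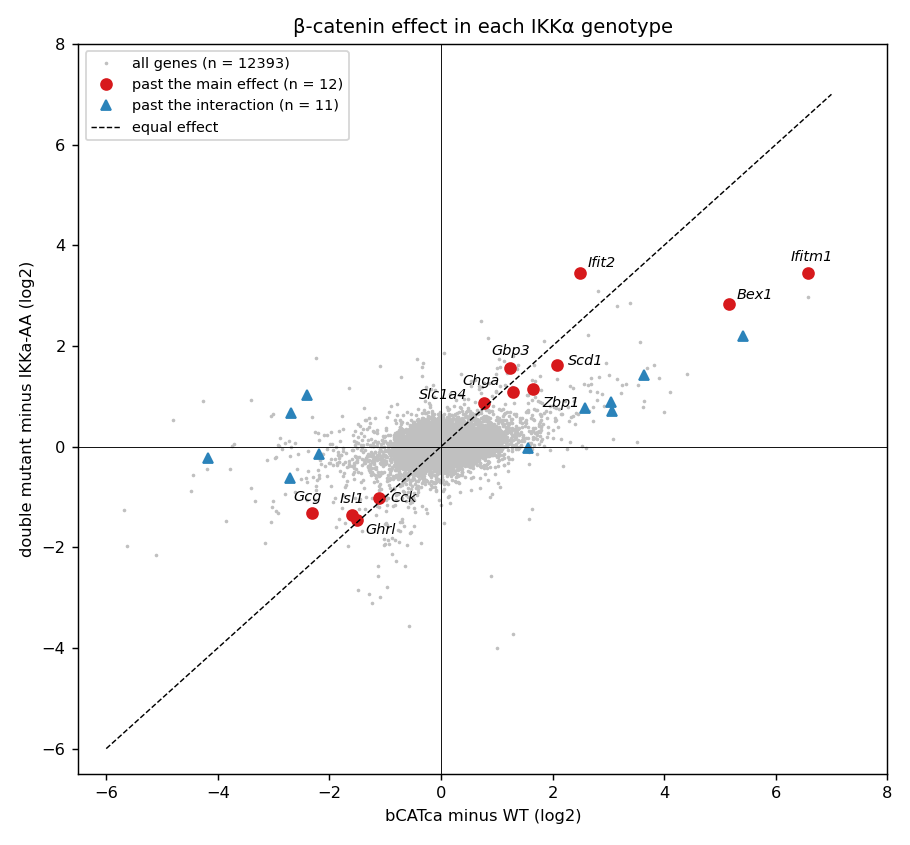
Effect of stabilised β-catenin in log2 intensity with normal IKKα (x axis) and with the AA allele (y axis) for 12393 genes (grey), with the 12 genes past the main effect (red circles, named) and the 11 past the interaction (blue triangles). Isl1, Ghrl, Cck, Chga and Slc1a4 lie close to the dashed line of equal effects, and Ifitm1 and Bex1 lie below it.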

How the data were processed

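RNA of intestinal epithelial cells was measured on 8 Affymetrix arrays, 2 per group, from 200 ng of total RNA per sample, per the labels' protocols. The authors deposited a linear intensity for every probe set on each array. They used RMA and affy, per the submitters' processing notes, and neither a version nor a setting is given in the sources used here. Because RMA gives all arrays a common distribution, it limits differences in total signal. Median deposited intensities were 50.94 to 53.75, with 53.75 and 53.62 on the bCATca arrays the highest. Over the genes used here, median log2 values were 6.39 on both bCATca arrays against 6.25 and 6.20 on WT. They were 6.30 and 6.28 on double mutants against 6.28 and 6.27 on IKKa-AA. The part of this shift in the counts was not tested beyond the 2 other normalisations. Arrays carry no read depth, and their number limits the precision.

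For this report, log2 was taken of each deposited intensity. A single gene symbol belonged to 20380 of the 22690 probe sets, several to 691 and none to 1555, and 64 were controls. The brightest probe set with 1 symbol stood for each of 12393 genes. An additive model, with β-catenin and IKKα genotype as terms, was fitted with limma 3.58.1 in R 4.3.3 (lmFit and eBayes, 5 residual and 3.87 prior degrees of freedom), with Benjamini-Hochberg adjustment over all genes. Effects within a genotype and the interaction came from a model with 1 mean per group (4 and 4.28). Scripts were tested on simulated data, with changed genes drawn from those of a residual spread under the median. That test checked the code and not the calls made here. Figures were drawn with matplotlib 3.10.9 from tables made in Python 3.11.15 (numpy 2.4.6, pandas 2.3.3).

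The comparison and the 36 gene lists (703 genes, 618 measured) were chosen with earlier results of these data known. Named genes were Ctnnb1, up to 12 increases and 12 decreases among shared effects, the 4 called genes with the smallest interaction p, and per list the called members or the one with the smallest p. No set test was run. The IKKα gene itself was not analysed here.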

Additional observations from a re-analysis of the deposited data

Results flagged for a closer look

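In 1 of 24 sets of 4 arrays (the 12 genes past the main effect, with and without stabilised β-catenin), 1 array lay far from the rest. Ifit2 read 6.14 on IKKa-AA replicate 1 against 4.70 to 4.72 on the other arrays without stabilised β-catenin. The gap was 0.991 of the whole range. The rate of about 1 set in 20 by chance belongs to the cutoff for flagging a set, and not to a gap this large. That rate also assumes arrays of a single group, whereas this set mixed WT and IKKa-AA arrays, so no chance rate is given for Ifit2.

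The effect of β-catenin differed between the IKKα genotypes in 11 genes by limma's interaction test. For genes higher in bCATca than in WT, the effect with the AA allele minus that with normal IKKα was -3.23 for Myl9 (5.42 with normal IKKα and 2.19 with the AA allele, adjusted p = 0.0166), -2.35 for Hacd4, a gene of very long-chain fatty acid synthesis (3.06 and 0.71, adjusted p = 0.0166), -2.21 for Hs6st2, a heparan sulfate sulfotransferase (3.64 and 1.42, adjusted p = 0.0166), and -2.14 for the Wnt inhibitor Nkd1 (3.04 and 0.90, adjusted p = 0.0166). It was -1.81 for Marcksl1 (2.57 and 0.77, adjusted p = 0.0282) and -1.58 for the Wnt receptor Fzd7 (1.56 and -0.02, adjusted p = 0.0495). Myl9 and Hs6st2 were near background on every array without stabilised β-catenin, so their differences are not exact folds.

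For genes lower in bCATca the difference was 3.95 for Slc23a1 (-4.18 and -0.23, adjusted p = 0.0166), 3.42 for the circadian clock gene Per2 (-2.39 and 1.02, adjusted p = 0.0166), and 3.37 for Acox2, a peroxisomal oxidase (-2.70 and 0.67, adjusted p = 0.0166). It was 2.08 for the carboxylesterase Ces1f (-2.70 and -0.62, adjusted p = 0.0435) and 2.04 for Amph, which encodes amphiphysin (-2.19 and -0.14, adjusted p = 0.0323). The interaction count was 0 without WT replicate 1 or either bCATca array, so each of these calls was lost there.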

How the results depend on the processing

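The main count of 12 genes became 521 with 1 mean per group, 3 without the IKKα term, 2 with log2 of the value plus 16, and 0 among the 6196 genes above the median level (limma, 1444 at an unadjusted p under 0.05). Fitted alone, normal IKKα gave 1458 genes and IKKa-AA gave 0 (636 at an unadjusted p under 0.05). It ranged from 2 to 1157 as arrays were left out, and was 9 to 14 under quantile normalisation, cyclic loess, the mean of probe sets, all probe sets, and trend with robust eBayes. Shared effects were 3 at 4-fold, 6 past both contrasts, 49 by the model with 1 mean per group (added after the data were seen), and 2 to 171 as arrays were left out. The same ranges were 223 to 1885 for bCATca minus WT, 0 to 159 for double mutants minus IKKa-AA, and 0 to 234 for the interaction. The AA count was 0 after quantile normalisation (863 at an unadjusted p under 0.05) and 4 after cyclic loess. The replicate numbers did not pair the samples (correlations of replicate differences -0.45 to 0.15). With them as a block the counts were 3 for the main effect, 701 with normal IKKα, 0 with the AA allele (741 at an unadjusted p under 0.05) and 6 for the interaction. Of 128 named genes under all alternatives, 3 changed sign, with IKKa-AA alone: Acox2 to 0.67, Fzd7 to -0.02 and Per2 to 1.02. Among 2374 gene values, 1965 kept direction and call, 109 lost the call and 297 gained it. The median change over all genes was 0.024, 0.003 after quantile normalisation and -0.002 after cyclic loess. The cause of these differences was not tested.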

Other observations

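When the model with 1 mean per group defined shared effects, 49 genes qualified (0.395% of 12393; 36 higher and 13 lower), of which 38 were not among the 11 already given. Of these 38, 23 were in no list, and those named here were chosen after their values were seen. All 38 also passed the additive model without IKKa-AA replicate 1 (9.34% of all genes), and 22 passed the model with 1 mean per group whichever array was left out. The 38 were chosen from these same 8 arrays, so these counts give no independent support. In 2 of the 38, Myl9 and Hs6st2, the difference between the IKKα genotypes passed the interaction test. Higher secreted and matrix genes included Htra1, a serine protease (1.94, adjusted p = 0.00085 in that model; 2.79 with normal IKKα and 1.08 with the AA allele), and Igfbp1, which binds insulin-like growth factors and was near background without stabilised β-catenin (2.14, adjusted p = 0.0009; 3.23 and 1.06). Msx1, a homeobox factor of developing tissues, read 5.78 on average without and 7.71 with stabilised β-catenin (change 1.93, adjusted p = 0.000636; 2.64 and 1.22 in the genotypes). Ifitm3, an antiviral relative of Ifitm1, read 9.88 and 11.99 (change 2.11, adjusted p = 0.00386; 2.83 and 1.39 in the genotypes).

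Lrg1, a secreted glycoprotein of the acute phase response, changed by 3.12 (adjusted p = 0.0172), and by nearly as much with normal IKKα (3.39) as with the AA allele (2.85). Its call was lost in 4 of the 8 fits with an array left out (highest adjusted p = 0.0746). Wwtr1, which encodes the Hippo pathway effector TAZ, changed by 1.97 (adjusted p = 0.00897), with 2.69 and 1.25 in the genotypes, and lost its call in 1 fit (adjusted p = 0.0652). Among lower genes, the membrane protein gene Susd2 changed by -2.20 (adjusted p = 0.0028), with -3.33 with normal IKKα and -1.07 with the AA allele, and the vesicle traffic gene Rab30 by -2.12 (adjusted p = 0.0041), with -2.96 and -1.29. Both were called in every such fit. The carboxylesterase genes Ces2g and Ces1g changed by -1.52 (adjusted p = 0.0122) and -2.11 (adjusted p = 0.0172) and lost their calls in 4 and 5 of the 8 fits. With normal IKKα and with the AA allele Ces2g stood at -1.94 and -1.10, and Ces1g at -3.03 and -1.20. Afp, the alpha-fetoprotein gene, changed by -1.30 (adjusted p = 0.038), with -1.36 and -1.25 in the genotypes, and lost its call in 5 of them (highest adjusted p = 0.136).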
